A study of Sus scrofa with 12 samples.

Results

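Fresh boar sperm (Fs) was described by the m6A peaks of its 3 immunoprecipitated (IP) samples, Fs1, Fs2 and Fs3. A stretch of the genome was a member, called a region here, when a deposited peak of each of the 3 samples covered it on the same strand, by 1 bp or more. There were 3650 such regions. The 6 IP samples of the series hold 61902 deposited peaks, and those of the other 3 samples had no part in the choice. Each region was given to the gene whose RefSeq mRNA exons it overlapped most on the same strand, and a gene with a region was a member. In 25 regions that touched exons of several genes, the other genes were not counted. Members were 2659 of the 20648 genes with an annotated mRNA (12.9%), and 8889 genes (43.1%) had a peak in at least 1 Fs sample.

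The series compared fresh with frozen-thawed sperm of 3 Duroc boars, with 5 sperm-rich fractions collected from each. Both groups came from the same ejaculates, and Fs was the portion put straight into liquid nitrogen. The frozen-thawed part (Fts) was cooled to 17 °C, diluted with a lactose and egg yolk extender, cooled to 4 °C, diluted again with an extender that held 6% glycerol, and frozen in straws. The labels gave 3 IP and 3 input libraries to each group and numbered them from 1 to 3, without saying which boar a number stood for, so spread between samples may include technical spread. Ribosomal RNA was depleted, RNA was broken into pieces of about 100 nt, and an anti-m6A antibody pulled down the methylated pieces. According to the study's methods, sperm pellets were washed and treated with a detergent against somatic cells.

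N6-methyladenosine (m6A) is a methyl mark that a METTL3 and METTL14 complex writes on adenosines of mRNA, mainly within the motif RRACH. Reader proteins of the YTH family bind it and affect splicing, translation and decay of the transcript. Mature sperm are nearly silent in transcription, and their RNA is largely left over from spermatogenesis.

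The value of each peak was the authors' score, 10 times -log10 of the p-value of IP against the input of the same sample. Such a score depends on read number and transcript level as well as on enrichment, and is not a level of methylation. Read depth is not given in the peak lists and was not used here. A score of 13.0 equals a p-value of 0.05. The lists held 8015 peaks in Fs1, 10378 in Fs2 and 10335 in Fs3. Of these, 3633, 3637 and 3637 lay over a region of all 3 samples, or 45.3%, 35.0% and 35.2%. Peaks that met no peak of either other Fs sample numbered 2136 (26.7%), 3595 (34.6%) and 3624 (35.1%), and Fs1 had the fewest of them.

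The 16 sperm markers had few peaks, unlike some larger groups of sperm genes given further on. Of 16 spermatozoon markers (median exonic length 1610 nt, against 2859.5 nt over all genes) only ACR, the protease acrosin, had a peak in any Fs sample, 6.25% against 43.1% of all genes, and it was the only one with a region. ACR had 2 regions, and the better lay at the stop codon in exon 9 of 9, with scores of 18.6, 4.80 and 30.5. PRM1, PRM2, TNP1, TNP2, ODF1, AKAP4, SMCP, SPATA18, SPATA3, TSSK6, CRISP2, SPAM1, LDHC, GAPDHS and HSPA2 had none. The lists hold no level of a transcript, so they do not tell whether a gene without a peak was present in the RNA. The label was not checked by expression here.

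Markers of other cells were set beside these. None of 15 leukocyte markers (median length 2433 nt) had a region, and 7 (46.7%, against 43.1% of all genes) had a peak in any Fs sample, with 2, 4 and 6 peaks in Fs1, Fs2 and Fs3. PTPRC, the pan-leukocyte phosphatase, had peaks in Fs2 only, with a best score of 3.65. LCP1 had peaks in the 3 samples, with best scores of 3.79, 4.23 and 4, CD68 had a best score of 18.6 and ITGAM of 12.9, each in Fs3, and MPO and S100A8 had a peak in 1 sample. CD3E, CD4, CD8A, CD14, CSF1R, ITGB2, S100A9 and CD79A had none. The best score of the list was 39.8, of MS4A1 in Fs1. Of 13 markers of epithelium and accessory glands (median length 1583 nt) none had a region, while 7 (53.8%) had a peak in any Fs sample and peaks numbered 11, 2 and 2. The seminal plasma proteins PSP-II, PSP-I and AWN, with 5, 3 and 1 peaks in Fs1 and none in Fs2 or Fs3, made up 9 of the 11 and were named after their values were seen. Their best scores there were 24.5, 29.4 and 22.2. The others with a peak were MUC1, KRT19, CDH1 and KRT18, with best scores of 14.7, 13.5, 8.44 and 3.7. EPCAM, KRT5, KRT8, CLDN3, CLDN4 and TMPRSS2 had no peak.

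Of 15 markers of Sertoli, Leydig and peritubular cells (median length 2526 nt), FSHR, the receptor for follicle-stimulating hormone, had a region, with 4.68, 21.2 and 9.91 in its last exon. Of these markers 8 (53.3%) had a peak in any Fs sample, with 5, 9 and 12 peaks in Fs1, Fs2 and Fs3. The best score was 81.0, of MYH11 in Fs3. PDGFRA, FSHR, INSL3 and CYP11A1 had best scores of 36.3, 31.4, 27.8 and 21.9. CLDN11, GATA4 and STAR also had a peak, and SOX9, AMH, WT1, INHA, CYP17A1, HSD3B1 and ACTA2 had no peak. Of 4 erythrocyte markers none had a region. HBB and ALAS2 had no peak, and SLC4A1, the anion exchanger of red cells, had peaks in Fs2 and Fs3 with a best score of 7.94. The part of other cells in the peaks was not tested.

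Regions had a median length of 172 bp, with quartiles of 93 and 462 bp. The middle of the score distribution was low. The median over Fs1-3 of a region's score had a median of 26 over all regions, and quartiles of 12.1 and 65.6. In each of the 3 samples the score was at least 20 in 1313 regions (36.0%) and at least 50 in 661 (18.1%). In 355 regions (9.73%) no sample reached the score that equals a p-value of 0.05. Ranks near the bottom thus rest on low scores. Without Fs1, 5638 regions were covered in both other samples, more than 1.5 times the count with it.

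Scores agreed in order more than in size. Spearman's rho across the 3650 regions was 0.609 for Fs1 and Fs2, 0.593 for Fs1 and Fs3, and 0.634 for Fs2 and Fs3, a description over regions that share their libraries. The ratio of the highest to the lowest of the 3 scores had a median of 3.03. It was at most 2 in 886 regions (24.3%) and above 10 in 329 (9.01%). In the 100 regions with the highest median score the median ratio was 1.62. These were picked by the same scores, and 7 of them stood at 3100 in all 3 samples. The highest score lay in Fs1 in 28.1%, in Fs2 in 37.8% and in Fs3 in 33.9% of the regions, so no sample held most of them. Fs1 had the lowest score in 39.1%.

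The top of the ranking was tied at 3100, a value that 12, 14 and 14 peaks of Fs1, Fs2 and Fs3 carried and none exceeded. In Fts1, Fts2 and Fts3, 1, 3 and 2 peaks lay above it, the highest at 3221, so 3100 is not a plain ceiling of the score, and what sets it is not known. In 7 regions all 3 samples stood at 3100, 5 of them on exons, and their order among themselves carries no information. These 5 were in STRBP, EIF4A2, LOC110257542, MUC2 and F5. STRBP encodes an RNA-binding protein of spermatids, and its region (chr1:264195739-264195851, minus strand) lay in the 5'UTR, in exon 1 of 18. EIF4A2 encodes an RNA helicase of translation initiation. Its region (chr13:124584495-124584634, plus strand) covered the whole of exon 4 of 11, 140 nt of coding sequence, and stood at 3100 in the 3 Fts samples too.

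The gene next in rank was YBX2, whose Y-box protein binds and stores mRNA in male germ cells. Its region (chr12:52641015-52641604, minus strand) lay in the coding sequence of exon 1 of 9, with scores of 3100 in Fs1, 2478 in Fs2 and 3019 in Fs3. No Fts sample had a peak there. LOC110257542, a gene annotated as like ZSCAN2, had its region in the 3'UTR (chr18:55967326-55967454, plus strand), again without a peak in Fts. MUC2, a gel-forming mucin, had scores of 3100 in the coding sequence of exon 33 of 59. F5, coagulation factor V, had a region of 1729 bp in exon 13 of 25, a long exon of 2938 nt.

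After these came SNX32, a sorting nexin, with scores of 1681, 1895 and 1875 in Fs1, Fs2 and Fs3 in the 5'UTR. PRR36 had 1859.9, 1912 and 1542 over 1552 bp of coding sequence. KIAA1644 had 1853, 2027 and 1643 on an exon that its longest coding transcript lacks. ACTN4, an actin cross-linking protein, was less even, with 1737, 1209 and 2887 at the start codon. The same held for MUC6, another gel-forming mucin, with 1954, 736 and 1731.

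Suprabasin (SBSN), a protein of the epidermis, had scores of 1363, 1626 and 2337 over 1604 bp of coding sequence. LHFPL4, which helps to cluster inhibitory receptors at synapses, had 2363, 1604 and 1221. CAPN8, a calpain protease, had 349 in Fs1 against 2214 in Fs2 and 1522 in Fs3. TSNARE1, named for its t-SNARE domain, had 1453, 1047 and 1639.6. The lowest score of all 25 genes with the highest ranks was that of ZC3H18, a zinc finger protein that acts in RNA processing, with 47.2 in Fs1, 1210.0 in Fs2 and 1716 in Fs3. Its ratio of 36.4 was the largest among these genes.

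None of the other 9 genes came near that ratio. FBXW4, an F-box protein, had 1138, 1204 and 1344, ZNFX1, a helicase-like RNA-binding protein, had 561, 1200.0 and 1219, and SPRED3, an inhibitor of Ras signalling, had 1118, 1014 and 1471. SMURF1, a ubiquitin ligase that acts on SMAD proteins, had 1235, 1106 and 881. ARL9, a small GTPase, had 1088, 1637 and 1018, and WNT9A, a secreted Wnt ligand, had 1557, 1013 and 1066. The nuclear receptor NR5A1, which drives steroid synthesis in gonads and adrenals, had 1061, 937 and 2408. ZNF574, a zinc finger protein, had 1046, 899.9 and 1752, and VPS37B, a subunit of the ESCRT-I complex, had 996, 1082 and 1012, the lowest median of the list at 1012. In 19 of the 25 genes the highest score was at most 2 times the lowest. These include the 5 genes at 3100 in all 3 samples, whose ratio the tied value fixed. The 25 genes were also chosen by these same scores, so this count describes them and tests nothing.

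By place, the best regions of the 25 genes lay in the coding sequence in 13, in the 5'UTR in 3, at the start codon in 2 and in the 3'UTR in 1. None lay at the stop codon. In the other 6 genes the midpoint was on an exon of another transcript (3) or off the exons that the region touched (3). Over all placed regions the coding sequence held 70.5%, the 5'UTR 6.97%, the start codon 10.5%, the 3'UTR 8.79% and the stop codon 3.23%. Exon 1 held 9 of the 25, where first exons held 16.3% of all placed regions. The 25 best regions were rich in G and C, with a median of 65.1% against 52.4% over all regions. In 9 of the 25 it reached 70%, a share met by 8.11% of all regions. Across the 3650 regions, GC and median score had a Spearman's rho of 0.192, given as a description.

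Regions were placed by their midpoint on the longest coding transcript of the gene, which succeeded for 2696 of the 3060 regions on exons. The classes start codon and stop codon reached 100 nt to each side. The coding sequence held 1901 regions, 70.5% (95% Wilson interval 68.8 to 72.2), where 49.7% of the length of the same transcripts lies. The start codon held 283, 10.5% (9.40 to 11.7) against 3.85% of the length, and stood out with a ratio of 2.73. The stop codon held 87, 3.23% (2.62 to 3.96) against 4.02%, a ratio of 0.803, which was 0.95 with scores of at least 50. The 5'UTR held 188, 6.97% against 9.34%. The 3'UTR held 237, 8.79% against 33.1%, a ratio of 0.266. The start codon held 15.9% of the regions with scores of at least 50, a ratio of 3.94, and the 3'UTR 4.43%, a ratio of 0.141. Each region counts once, by its midpoint, whatever its length. Regions in the 3'UTR had a median of 658 bp against 138 bp in the coding sequence. The ratios thus compare counts of regions with length, and are not shares of the bases that regions cover. The intervals cover counting error only, and regions of a gene are not independent.

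Shares by place differed along the ranking. Of the 898 placed regions with the highest scores, 14.4% lay at the start codon and 9.24% in the 5'UTR, and of the 899 with the lowest 7.45% and 5.90%. The 3'UTR went the other way, with 5.57% of the highest and 11.3% of the lowest. The median score was 37.4 at the start codon, 36.3 in the 5'UTR, 24.8 in the coding sequence, 25.6 at the stop codon and 20.3 in the 3'UTR. Regions in the 3'UTR were long, with a median of 658 bp against 138 bp in the coding sequence. With a score of at least 50 in each sample, the 5'UTR held 10.7% of the regions and its ratio to length passed 1, at 1.31.

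Within the coding sequence, regions thinned out toward its end. With the coding sequence divided into 10 equal parts, 275 of 2109 midpoints (13.0%) fell in part 1 and 125 (5.93%) in part 10. Part 5 held 270 (12.8%), so the decline was not smooth.

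By exon, 440 regions lay in the first exon, 16.3% of those placed against 11.5% of the length, and their median score of 40.3 was higher than in internal (24.2) and last exons (22.2). Internal exons held 1684 regions (62.5%, against 46.6% of the length). Last exons held 424, 15.7% against 39.8% of the length, again a count of midpoints and not of bases. The exons with a region had a median length of 199 nt, against 134 nt over the 38155 exons of the same transcripts. This pools kinds of exon. Medians were 147 against 126 nt in internal, 348 against 290 nt in first and 2159.5 against 1381 nt in last exons. In single exons both were 968 nt. Region ends followed exon ends. Of the regions on exons, 1018 (33.3%) ran from an exon start to the end of an exon, and 2361 (77.2%) had an end at an exon boundary.

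The 5'UTR list was led by STRBP, SNX32 and ZNFX1, all in exon 1. SSTR3, a somatostatin receptor, followed with scores of 922, 776 and 1087, and LRRC42, named for its leucine-rich repeats, with 757, 881 and 1190.3. All 5 regions lay in the exon where transcription starts. At the start codon, ACTN4 and ZNF574 came first. SAE1, a subunit of the enzyme that activates SUMO, had 1008, 1089.7 and 881. USP32, a ubiquitin protease, had 1091, 713 and 832, and CNFN, a protein of the cornified envelope of skin, had 762, 744 and 1000.2.

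At the stop codon, HNRNPK led with 786, 825 and 509 in the last exon of 16 (chr10:30986596-30986799, plus strand). Its product is an RNA-binding protein of nuclear RNA particles, and no Fts sample had a peak there. RAB8A, a small GTPase of vesicle traffic, had 498, 739 and 744. USH1C, the scaffold protein harmonin, had 413, 44.2 and 475, with Fs2 far below the other samples. RNF144A, a RING finger ubiquitin ligase, had 350.4, 393 and 1080.4, and CDK20, a kinase of the cyclin-dependent family, had 299, 115 and 298.

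In the 3'UTR, the genes after LOC110257542 had far lower scores. CASP14, a caspase of the epidermis, had 376, 419 and 119 over 1047 bp. SIX3, a homeobox factor of the forebrain and eye, had 372, 112 and 323 over 1155 bp. SMIM24, a small membrane protein, had 60.9, 258 and 789, with Fs1 far below Fs3. TP53INP2, which acts in autophagy, had 147, 253 and 248.

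A single region was the rule, in 2316 of the 2659 genes (87.1%). There were 299 genes with 2, 35 with 3 and 9 with 4 or more. UNC13A, a protein that primes synaptic vesicles for release, had the most, with 8 regions spread over chromosome 2 from 60057959 to 60123366. The strongest lay at the start codon, with 51.1 in Fs1, 138 in Fs2 and 105 in Fs3. The weakest, over the 540 nt of exon 10, had 3.03, 4.23 and 5.02, and held 4 copies of GGACT. MYH14, a non-muscle myosin heavy chain, had 5 regions, with median scores from 5.48 to 39.9.

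JPH4, a junctophilin that ties the surface membrane to internal calcium stores, had 4 regions. Its region in the 5'UTR (chr7:75522793-75523275, plus strand) had 775, 749.9 and 776 in Fs1, Fs2 and Fs3, and that in exon 3 had 824, 975 and 553. The other 2 were far weaker, with medians of 22.2 and 24.1. EPB41L1, a linker of the membrane skeleton, also had 4, the best of them over the whole of exon 13, 36 nt long (chr17:39457440-39457475, plus strand), with 366, 245 and 396. CCDC159, a coiled-coil protein, had 4, the best with 454, 298 and 336.

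Longer genes had a region more often. Genes with a region had a median exonic length of 4194 nt, against 2859.5 nt over all genes. A region was found in 5.84% of genes under 1000 nt and in 23.2% of genes of 6000 nt or more. Counts of gene groups are therefore given with their length, beside the 12.9% of all genes.

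Genes of the m6A machinery were members in part. Of 10 annotated writer genes (median length 4401 nt), CBLL1 and METTL16 had a region. CBLL1, a ubiquitin ligase that belongs to the writer complex, had scores of 74.7 in Fs1, 32.5 in Fs2 and 83.4 in Fs3 in its last exon, in the coding sequence. METTL16, which methylates U6 RNA, had 14.7, 45.9 and 47.8 in the 5'UTR of exon 1. METTL14 had no peak in any Fs sample, METTL3 had 1 peak, in Fs1 with a score of 3.51, and WTAP and ZC3H13, regulators of that pair, had a peak in each sample but no place shared by the 3. VIRMA had no entry under that symbol.

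Neither eraser, FTO or ALKBH5, had a peak in any Fs sample. Of 13 readers (median length 4616 nt), 4 had a region. HNRNPA2B1, a nuclear reader, had 34.4, 132 and 91.3 in the coding sequence of exon 9. IGF2BP3, which stabilises its target mRNAs, had 117, 79.5 and 30.8 in the 5'UTR. YTHDC1, the nuclear YTH protein, had 72.1, 46.9 and 49.98, with a peak in the 3 Fts samples too. HNRNPC had 3.64, 24.9 and 23.3 at the stop codon. The cytoplasmic readers YTHDF1, YTHDF2 and YTHDF3 had no peak in any Fs sample.

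By share of genes with a region, the flagellum list was the best filled of the sperm structures, with 16 of 54 (29.6%, median length 4982 nt). A peak in any Fs sample was found in 70.4% of its genes, against 43.1% of all genes. That share was not the highest, since the ion channel list below had 72.2%. Axonemal dynein heavy chains, the motors of the flagellum, led the flagellum list. DNAH1 had 303, 33.4 and 191 in Fs1, Fs2 and Fs3 in exon 47 of 78. DNAH5 had 195, 157 and 134, and DNAH7 7.61, 294 and 124. SPAG16 and SPAG17, of the central pair of microtubules, had 122, 128 and 33.3, and 54.3, 64.7 and 44.3. ROPN1, a protein of the fibrous sheath, had 53.5, 44.1 and 24.8. The median of the best scores was 16.4 in this list, against 28.2 over all genes with a region.

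Of 31 genes of the acrosome and gamete fusion (median length 1474 nt), 3 had a region and 25.8% a peak in any Fs sample. DPY19L2, needed to attach the acrosome to the nucleus, had 38.8, 29.9 and 92.7, SPACA1, an acrosomal membrane protein, had 9.16, 21.1 and 9.28, and the third was ACR. Chromatin packaging had 1 of 10 (median length 2184 nt), RNF8, a ubiquitin ligase that acts in histone removal, with 6.49, 10.1 and 14.6 at the start codon. PRM3 and HMGB4, like the protamines and transition proteins among the markers, had no peak. Of 18 genes for ion channels and pH (median length 3244 nt), 4 had a region and 72.2% a peak in any Fs sample. CATSPERB, a subunit of the sperm calcium channel, had 86.4, 149.5 and 80.4, and CATSPERE, CATSPER3 and SLC9B1, a sodium-proton exchanger, had medians of 13.2, 10.4 and 6.67.

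In cAMP signalling, 3 of 19 genes (15.8%, median length 5032 nt) had a region. PRKAR1A, a regulatory subunit of protein kinase A, had 117, 63.6 and 154 in the 5'UTR. AKAP9, an anchor protein of that kinase, had 96.1, 86.7 and 7.37. ADCY10, the bicarbonate-sensitive adenylyl cyclase of sperm, had 3 regions, the best with 7.73, 169 and 75.4, uneven between samples. Energy metabolism had 2 of 34 (5.88%, median length 2206 nt). The glycolytic enzyme PKM had 183, 258 and 173, and PDHA2, the testis form of a pyruvate dehydrogenase subunit, had 35.0, 95.6 and 11.5.

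Meiosis and piRNA genes had a region in 4 of 39 (10.3%, median length 3510 nt). SYCP1, of the synaptonemal complex, had 21.2, 37.8 and 43.4, and TDRD7, of germ cell RNA granules, had 19.4, 22.8 and 23.6 at the start codon. SYCP2, of the same complex, had 5.93 in Fs1 and 24.1 in Fs2, and MSH5, a protein of crossing over, had a median of 5.57. Of 29 centrosome genes (median length 5715 nt), 7 had a region. SPICE1, of the centriole, had 192, 1098 and 181, highest in Fs2 by far. CEP152 and CEP192, which recruit the kinase of centriole duplication, had medians of 27.5 and 18.0. CEP350, CEP250 and NIN had medians of 17.3, 11.7 and 11.4.

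Enzymes of chromatin and of ubiquitin had many members, and long genes. Of 54 chromatin modifying enzymes (median length 8248 nt) 19 had a region, 35.2%. NSD3, a histone methyltransferase, had 463, 825 and 613, and CHD4, the remodeller of the NuRD complex, had 576, 483 and 578 over 21 bp. KAT6B, an acetyltransferase, had 339, 226 and 252, CHD8, a remodeller, had 161, 145 and 112, and KMT2B, a methyltransferase for histone H3, had 121, 132 and 197. HDAC1, a deacetylase, had 108, 187 and 115 at the start codon. In these 6 genes all 3 samples were above 100.

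Of 40 ubiquitin ligases and proteases (median length 7351 nt) 17 had a region, 42.5%, and SMURF1 and USP32 were again the first. The ligase UBR3 had 263, 485 and 335, the protease USP24 379, 147 and 222, the ligase TRIP12 299, 172 and 136 and the protease USP8 68.6, 78.0 and 91.3. Of 28 heat shock proteins and chaperones (median length 2824 nt), DNAJA1 alone had a region (20.4, 29.7 and 19.0). Cytosolic ribosomal proteins, short genes with a median of 761 nt, had 2 of 73 (2.74%). RPL13A had 58.5, 44.4 and 148 at the start codon, and RPL9 had 24.5, 23.5 and 29.6 in the 3'UTR. RPS7, named after its values were seen, had 1 peak at 3100 in each of Fs1, Fs2 and Fs3, but no place was covered in all 3. The part of gene length and of transcript level in these shares was not tested.

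Of the regions, 590 (16.2%) lay on no mRNA exon of their strand. Of these, 355 were between genes, 139 within a gene of the same strand but off its exons, and 96 within a gene of the other strand. Their median score of 25.4 was close to the 26.1 on exons. They included 5 of the 25 regions with the highest scores. A pair of them stood at 3100 in the 3 Fs samples, both between genes (chr12:36064949-36065486 and chr8:67262257-67262806, plus strand), and were singled out after their values were seen.

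By chromosome, regions on exons came to 37.1 per Mb of annotated exon. Chromosomes 2 (49.6), 6 (47.8), 7 (44.6) and 17 (43.7) were the densest, and chromosomes 11 (14.5) and X (13.8) the sparsest. On X, 4.72% of the genes had a region. These densities were not tested.

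The motif RRACH reads A or G, A or G, A, C, then A, C or T. It was searched on the transcript strand only, along with GGACT, which is 1 of its forms. RRACH came to 12.7 per kb in the 2696 placed regions, below the 14.2 per kb of their whole transcripts, and GGACT to 1.01 against 0.984 per kb. At least 1 RRACH was in 79.4% of the regions, against 81.3% of all windows of equal length on the same transcripts, and GGACT in 22.0% against 20.4%. The regions' shares lay near those of the transcripts themselves. By class, RRACH was lowest at the start codon (10 per kb), where GC was highest at 64.2%, and highest at the stop codon (13.7). GGACT was in 23.2% of the 898 regions with the highest scores and in 20.9% of the 899 with the lowest. Set against coding sequence alone, GGACT in coding regions had a ratio of 0.930, below 1.

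Of the 25 genes with the highest ranks, 20 had RRACH in their best region and 7 had GGACT. The 3 whose best region lay in the coding sequence and held GGACT are shown with GGACT in capitals, since they join a high score with the form most often given as the m6A consensus. Bases are those of Sscrofa11.1 (susScr11), read 5′ to 3′ on the transcript strand. PRR36 is given at chr2:71326261-71326560 on the plus strand, 300 bases of its region with 4 RRACH. SBSN is given at chr6:44963554-44963853 on the minus strand, 300 bases with 4 RRACH. FBXW4 is given at chr14:112735102-112735299 on the minus strand, the whole region of 198 bases with 2 RRACH.
PRR36: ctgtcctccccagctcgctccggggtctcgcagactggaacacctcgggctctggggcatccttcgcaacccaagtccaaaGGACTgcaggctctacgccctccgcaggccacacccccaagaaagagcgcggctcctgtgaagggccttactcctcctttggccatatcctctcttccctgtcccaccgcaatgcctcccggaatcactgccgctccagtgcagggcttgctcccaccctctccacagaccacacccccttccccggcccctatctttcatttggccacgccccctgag
SBSN: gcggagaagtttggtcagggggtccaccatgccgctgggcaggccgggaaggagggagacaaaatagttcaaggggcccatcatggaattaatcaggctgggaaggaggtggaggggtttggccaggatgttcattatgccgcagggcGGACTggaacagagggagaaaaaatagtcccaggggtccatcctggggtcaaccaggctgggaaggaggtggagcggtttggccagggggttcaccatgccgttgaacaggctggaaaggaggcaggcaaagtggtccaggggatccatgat
FBXW4: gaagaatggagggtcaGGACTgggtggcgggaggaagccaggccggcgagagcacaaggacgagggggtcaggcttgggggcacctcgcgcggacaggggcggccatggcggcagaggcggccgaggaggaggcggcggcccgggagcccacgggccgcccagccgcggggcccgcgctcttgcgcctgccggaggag

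A further pair, chosen after their values were seen, shows regions that fill a whole exon, with RRACH in capitals. EIF4A2, at 3100 in all 3 Fs samples, had 3 RRACH in exon 4 (chr13:124584495-124584634, plus strand). EPB41L1, with 366, 245 and 396, had 2 in the 36 bases of exon 13 (chr17:39457440-39457475, plus strand). Neither held GGACT.
EIF4A2: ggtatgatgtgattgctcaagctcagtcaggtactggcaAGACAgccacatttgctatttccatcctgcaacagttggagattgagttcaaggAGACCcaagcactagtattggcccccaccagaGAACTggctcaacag
EPB41L1: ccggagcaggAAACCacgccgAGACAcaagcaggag

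Which peaks recurred was asked next. In each sample, the peaks over a region of all 3 samples were set against the peaks that met none of the other Fs samples. Peaks of the latter kind had low scores, with medians of 6.61, 6.76 and 6.37, against 23.7, 28.7 and 27.2. The 5'UTR share was 7.10%, 7.0% and 7.12% in recurring peaks of Fs1, Fs2 and Fs3 and 5.20%, 4.80% and 4.34% in the others, a mean difference of 2.29 percentage points (n = 3, exact two-sided sign-flip test, p = 0.25, adjusted p = 0.45). That p is the smallest that 3 samples allow, so no difference of this kind could pass 0.05, and each p here measures only the spread between these samples. Recurring peaks also lay in longer exons, with medians of 198, 198 and 199 nt against 174, 175 and 168 nt. They were themselves longer, with median lengths of 187, 183 and 183 bp against 147, 154 and 150 bp. The part of peak length in recurrence was not tested.

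The stop codon share was lower in recurring peaks, with 3.03%, 3.32% and 3.09% against 4.91%, 4.05% and 4.45%. The same held for RRACH, at 12.6 per kb in each sample against 12.9, 13.7 and 13.7. The recurring peaks lie over the same regions in the 3 samples, so the 3 differences share a side and are not independent. With scores of at least 20, the mean difference was -0.295 points in place of -1.32 for the stop codon, and 50.3 nt in place of 26.2 nt for exon length. The coding share was lower too, with 71.0%, 70.3% and 70.8% against 71.1%, 74.7% and 72.8%, near 0 in Fs1. Its mean difference of -2.2 points was -4.89 with scores of at least 20 and -1.07 without Fs2. The start codon share and GC differed in sign between samples. At the start codon recurring peaks had 10%, 10.4% and 9.99% and the others 10.1%, 7.53% and 8.19%, and for GC the values were 52.1%, 52.0% and 52.1% and 52.4%, 50.6% and 50.4%. With scores of at least 20, the start codon difference was 2.33 in place of 1.55 points and that of GC 2.14 in place of 0.967, with a single sign in the 3 samples. Without a replicate, the start codon difference ran from 0.884 to 2.34 points and that of GC from 0.591 to 1.59. The 3'UTR share and GGACT also differed in sign between samples. The 9 measures formed 1 family, with Benjamini-Hochberg adjusted values of 0.45 or more in this exact test. Shares by place among them are parts of the same whole and not independent.

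Set against Fts, all peaks of Fs lay less often in the coding sequence, with 71.7%, 73.0% and 72.4% against 77.0%, 76.6% and 76.0% in the Fts samples of equal number. The mean difference, Fs minus Fts, was -4.17 percentage points ± 0.943, and the groups did not overlap (SD, n = 3 pairs of equal number, exact two-sided sign-flip test, p = 0.25, the smallest possible, adjusted p = 0.375). Fs peaks lay more often in the 3'UTR (8.45%, 8.76% and 9.19% against 7.19%, 6.90% and 7.07%), in the 5'UTR (6.06%, 5.63% and 5.63% against 4.23%, 4.55% and 4.61%) and at the start codon (9.91%, 8.90% and 8.92% against 7.64%, 8.03% and 8.44%). Their RRACH density was lower, with 12.8, 13.1 and 13.0 per kb against 13.9, 14.1 and 13.9. For these 5 measures the groups did not overlap, and p was 0.25 in the same exact test. All but RRACH are shares by place. With the stop codon share they make up the whole of a sample, so they are not separate results. With scores of at least 50 in each peak, the 3'UTR difference shrank from 1.74 to 0.0954 points, while the difference was 4.61 in place of 1.21 at the start codon, 3.23 in place of 1.31 in the 5'UTR, -7.4 in place of -4.17 in the coding sequence and -1.8 in place of -1.03 per kb for RRACH. Without the samples numbered 1, the start codon difference was 0.68 points. The stop codon share overlapped between the groups but was lower in Fs in each pair, with 3.89%, 3.72% and 3.86% against 3.98%, 3.90% and 3.88% (n = 3 pairs, same exact test, p = 0.25, adjusted p = 0.375). Its mean difference of -0.0967 points was -0.541 with scores of at least 50 and ran from -0.139 to -0.0542 without a replicate. GC, GGACT and exon length overlapped and differed in sign between pairs. With scores of at least 50, GC and GGACT had a single sign in the 3 pairs, with mean differences of 2.39 points and 0.0515 per kb. Over all peaks the GGACT difference was 0.00946 per kb, and it ran from 0.00025 to 0.0155 without a replicate. The study reports reads and mapping of each library. They were not used here, so their part in the differences between Fs and Fts was not tested.

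Of the 3650 Fs regions, 1047 (28.7%) met a peak in all 3 Fts samples, 791 (21.7%) in 2, 694 (19.0%) in 1 and 1118 (30.6%) in none. With only Fts scores of at least 20, the shares in all 3 and in none were 14.5% and 56.7%. From the other side, 1041 of the 4038 regions covered in all 3 Fts samples (25.8%) met an Fs region. Among the 25 regions with the highest scores, 15 (60.0%) had a peak in all 3 Fts samples and 2 in none. In the 500 regions that followed the first 500 the share in all 3 was 46.2%, and in the 1650 at the end of the ranking it was 16.0%, with 44.9% in none. Fs regions with no Fts peak had a median score of 15.2, and those with 3 had 49.6. Fs presence was fixed by the choice of members, so these shares describe the regions and test nothing.

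Regions with high Fs scores and no Fts peak were few. In the first 100 there were 4, in LOC110257542, YBX2, HNRNPK and CHD4, named after their values were seen. Each had a score of at least 483 in every Fs sample. By class, the 5'UTR had the largest share with a peak in all 3 Fts samples, 34.6%, against 27.0% in the coding sequence and 27.2% at the start codon.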

How the data were processed

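Per the labels, MeRIP-seq gave 3 IP and 3 input libraries in each of Fs and Fts, read in pairs of 150 bp. The submitters' processing notes name cutadapt 1.9.3, HISAT2 (version not given in these notes) and the build susScr11 (Sscrofa11.1). The authors called peaks with MACS in each IP sample against its own input and kept those on mRNAs. The deposited score of a peak, made by the authors, is 10 times -log10 p. The authors' list of differential sites was not used. It holds the sites that the authors found to differ between Fts and Fs. Regions were ranked by median score, and ties, as at 3100, by mean score, then position. A region's score in a sample was the highest of that sample's peaks over it. Fs and Fts were paired by number, as the study's methods describe a paired design, although the labels do not say that numbers stand for boars.

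Regions, genes (largest same-strand exon overlap, 25 regions touching several genes), classes, motifs and tests were computed with Python 3.11.15, numpy 2.4.6, scipy 1.17.1 and pysam 0.24.0 on RefSeq Annotation Release 106. All 233 sequence names with a peak were found in the assembly, and 0 peaks passed the end of their sequence. The code was tested on simulated data. Named genes were the 25 with the highest median score, the 5 with the most regions, the first 5 regions of 4 transcript classes up to 6 genes with a region of each of 20 lists, and markers with no peak. Other members named without a region were chosen after their values were seen. The lists covered m6A writers, erasers and readers, chromatin packaging, flagellum, acrosome, ion channels, cAMP, energy metabolism, meiosis and piRNA, chromatin enzymes, centrosome, chaperones, ribosomal proteins, ubiquitin enzymes and 5 sets of cell markers. Of 554 list entries, 517 matched an annotated symbol. Members and lists were chosen with earlier results of these data known. Alternatives covered score minimums, overlap rules, codon classes, motif windows, pairing and leaving out each replicate.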

Additional observations from a re-analysis of the deposited data

How the results depend on the processing

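The score minimum moved the counts most. With scores of at least 20, 1313 regions in 1047 genes were left, and with at least 50, 661 in 553. Regions covered in the 2 other samples without 1 replicate numbered 4733 to 5638, most without Fs1, and their genes 3352 to 3885. By class, 200 nt around the codons gave 4.08% for the 5'UTR, 19.0% for the start codon, 62.2% for the coding sequence and 6.68% for the stop codon, by construction of wider classes. With scores of at least 50 the shares were 10.7%, 15.9%, 65.0%, 4.02% and, in the 3'UTR, 4.43%, and the cause was not tested.

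For Fs regions met in all 3 Fts samples and in none, an overlap of at least 0.5 of the region gave 27.0% and 32.3%, Fts scores of at least 20 gave 14.5% and 56.7%, and leaving out a replicate gave 22.1% to 25.5% and 35.1% to 40.8%. The RRACH ratio of regions to transcripts, 0.892, was 0.846 with 100 bp at the midpoint, 0.901 with scores of at least 50, 0.867 in coding sequence alone and 0.897 to 0.906 without a replicate. The GGACT ratio, 1.03, was 1.09, 1.05 and 0.930 under the first 3 of these, so it lay below 1 in coding sequence. With scores of at least 20, Spearman's rho was 0.651 (Fs1 and Fs2), 0.632 (Fs1 and Fs3) and 0.676 (Fs2 and Fs3).

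For peaks in all 3 against 1 sample, GGACT (-0.0185 per kb) turned to 0.0345 with scores of at least 20 and ran from -0.0349 to -0.00134 without a replicate, and the 3'UTR share (-0.314 points) ran from -0.535 to 0.118 without a replicate. Between Fs and Fts, GC (0.577 points) ran from -0.0794 to 0.999 without a replicate and was 2.39 with scores of at least 50, and exon length (-1.5 nt) turned to 0.5 with scores of at least 50 and ran from -3.5 to -0.25 without a replicate. The cause was not tested.

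Of 153 alternatives over 32 results, 113 kept the direction of a tested difference, or the size of a count or share. Same-numbered Fs and Fts samples deviated together with correlations of 0.0142, 0.00609 and 0.00434 over 1047 regions, so the scores do not show that equal numbers pair them. With no replicate block, the coding difference between Fs and Fts was -4.17 points (exact permutation test of 3 against 3, p = 0.1, the smallest it allows), and neither form of the test could pass 0.05. Depth was not used here, so how far it limits weak peaks in a sample was not tested.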
